A study of Bos taurus with 33 samples.

Results

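The genes described here encode the meiotic cohesin complex and the proteins that open it: SMC3, SMC1B, SMC1A, RAD21, REC8 and STAG3, the axis protein SYCP3, the protease separase (ESPL1) and its inhibitor securin (PTTG1). They were chosen by name and not by their values, were looked up by gene symbol in the oocyte and cumulus cell (CC) tables and were joined by Ensembl identifier, and they are 9 of the 17543 genes listed in either table. All 9 were listed in oocytes and 8 in CC. SMC1B was not listed in the CC table, and PTTG1 (ENSBTAG00000012184) appeared there without a symbol. The RNA came from suckled postpartum Hereford-Angus crossbred beef cows, with 4 oocytes in a pool, or the CC of 4 complexes, and 1 complex (that of the largest follicle) aspirated per cow. By the study's methods CC pools correspond to oocyte pools of the same complexes, so both cell types share cows. All cows received gonadotropin releasing hormone (GnRH) on day -9 and prostaglandin F2 alpha on day -2. Cows of the small classification (largest follicle up to 11.7 mm) and of the large classification (from 12.7 mm) had shown no estrus and received a second GnRH injection on day 0, so that their gonadotropin surge was induced. Cows of the spontaneous classification (follicle of variable size, 11.7 to 14.0 mm by the study's methods) expressed estrus, had their own surge and received no second injection. Oocytes and CC were collected about 23 h after the second GnRH injection or estrus according to the protocol, and about 20 h according to the stage given for each sample. The small and the large classification had 6 pools each in either cell type, and the spontaneous classification had 4 of oocytes and 5 of CC.

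Cohesin is a ring made of an SMC1 protein, SMC3 and a kleisin, with a stromal antigen (STAG) subunit bound to the kleisin, and it holds sister chromatids together from DNA replication to anaphase. Meiotic cells build rings with SMC1B, REC8 and STAG3 beside the general subunits SMC1A, RAD21, STAG1 and STAG2. In the mammalian oocyte these rings are loaded before birth and must last through the long prophase arrest, until separase, freed from securin, cuts the kleisin at the divisions that follow the preovulatory gonadotropin surge.

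The unit throughout is CPM, the reads of a gene in each 1000000 reads that fell on any gene. The oocyte pools held 7664375 to 17934916 reads and the CC pools 1911600 to 5772431. A count of 0, which allows up to 3 reads, therefore leaves room for 0.167 to 0.391 CPM in an oocyte pool and for 0.52 to 1.57 CPM in a CC pool. These limits cover counting error only, since the cDNA was amplified. Summed over 10 oocyte markers, oocyte pools had 9217 to 13738 CPM, against 47.3 to 356 CPM in the CC, where BMP15, ZP4, DPPA3 and NPM2 were not listed. Of that CC sum, KIT alone had 39.9 to 350 CPM (mean 161), whereas GDF9, ZP2, ZP3, NLRP5 and OOEP averaged 0.0437 to 2.65 CPM. For 11 cumulus and granulosa markers the sum was 12449 to 34240 CPM in CC and 526 to 4063 CPM in the oocyte pools, and none was at 0 in every oocyte pool. VCAN alone averaged 1269 CPM in oocyte pools. HAS2 was the only 1 of the 11 with the higher mean in oocytes (193 against 75.5 CPM in CC). Mitochondrially encoded genes took 0.846 to 5.0% of the reads in oocyte pools and 12.6 to 44.0% in CC pools, with small replicate 3 the highest in both cell types. Because CPM are shares of a pool, fewer cells of a type and less RNA per cell cannot be told apart. The oocyte and CC tables were scaled separately, and levels are set side by side across them without a test. CPM are not corrected for transcript length, so the levels of different genes are not compared.

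SMC3, the subunit shared by all cohesin rings, was read in every pool. In oocytes it ranged from 797 to 1056 CPM in small pools (median 879), from 849 to 1222 CPM in large pools (median 979), and stood at 892, 852, 674 and 1174 CPM in the spontaneous pools. The 3 classifications overlapped, and the spontaneous pools held both the lowest and the second highest value. In CC it ranged from 158 to 247 CPM in small pools (median 192), from 209 to 266 CPM in large pools (median 238), and stood at 257, 192, 251, 236 and 231 CPM in the spontaneous pools. No CC pool reached the lowest oocyte pool, and the mean was 942 ± 146 CPM in oocytes (SD, n = 16) against 224 ± 31.9 CPM in CC (SD, n = 17).

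SMC1B, the SMC1 protein made in meiotic cells, was measured in oocytes only. It ranged from 436 to 534 CPM in small pools (median 514), from 445 to 616 CPM in large pools (median 512), and stood at 544, 508, 403 and 556 CPM in the spontaneous pools. Its mean of 511 ± 57.0 CPM (SD, n = 16) rested on 4069 to 9973 reads per pool. It had the smallest spread of the members retained in oocytes, with a coefficient of variation (CV) of 11.2%, and the 3 classifications overlapped.

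SMC1A, the SMC1 protein of dividing somatic cells, was low and uneven in oocytes. It ranged from 9.22 to 52.0 CPM in small oocyte pools (median 25.7), from 8.33 to 39.6 CPM in large pools (median 22.1), and stood at 41.0, 26.5, 9.41 and 28.6 CPM in the spontaneous pools. Each classification had a pool under 10 CPM, and the CV of 49.0% was far above the 5.53% that counting alone would give. The CC pools ranged from 23.2 to 40.3 CPM in small pools (median 36.2), from 28.9 to 62.3 CPM in large pools (median 40.6), and stood at 54.5, 43.1, 44.5, 48.5 and 41.7 CPM in the spontaneous pools. It was the only member with at least 5 CPM in enough pools to be tested whose mean was higher in CC (40.6 ± 9.70 CPM, n = 17) than in oocytes (25.4 ± 12.5 CPM, n = 16; SD), and the pools of both cell types overlapped.

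RAD21, the kleisin of mitotic cells, was also found in every pool. In oocytes it ranged from 332 to 667 CPM in small pools (median 575), from 412 to 652 CPM in large pools (median 600.1), and stood at 480.0, 624, 465 and 523 CPM in the spontaneous pools. Its CC values ranged from 253 to 417 CPM in small pools (median 295), from 198 to 372 CPM in large pools (median 279), and stood at 247, 277, 273, 362 and 345 CPM in the spontaneous pools. The oocyte mean of 553 ± 94.0 CPM (SD, n = 16) was 1.85 times the CC mean of 300 ± 57.0 CPM (SD, n = 17), but small oocyte replicate 2, at 332 CPM, and large oocyte replicate 6, at 412 CPM, fell within the CC range.

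REC8, the meiotic kleisin and the subunit that separase cuts in meiosis, was at or near the detection limit. It had no read in 11 of 16 oocyte pools and 5 of 17 CC pools. The oocyte pools with reads were 1 small pool at 1.04 CPM, 1 large pool at 5.42 CPM, and 3 spontaneous pools at 7.04, 0.607 and 0.0675 CPM. The pool at 7.04 CPM rested on 106 reads, whereas every other spontaneous oocyte pool stayed under 1 CPM. In CC it ranged from 0 to 5.56 CPM in small pools (median 0.153) and from 0 to 1.02 CPM in large pools (median 0.622), and stood at 13.4, 0.195, 2.72, 0 and 0.22 CPM in the spontaneous pools. REC8 failed the filter of 5 CPM in at least 4 oocyte or 5 CC pools in both tables, and a difference between cell types or classifications was not detectable at this depth.

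STAG3, the meiotic STAG subunit, was present in every oocyte pool and scarce in CC. In oocytes it ranged from 2.0 to 43.0 CPM in small pools (median 21.9), from 23.5 to 54.4 CPM in large pools (median 28.3), and stood at 33.9, 30.3, 24.2 and 19.4 CPM in the spontaneous pools. The lowest oocyte value, from small replicate 2, rested on 27 reads, and the next lowest small pool had 18.5 CPM. CC values ran from 0 to 3.04 CPM in small pools (median 0.154) and from 0 to 6.05 CPM in large pools (median 0.359), and stood at 2.72, 0.585, 0.908, 1.27 and 1.10 CPM in the spontaneous pools. It had no read in 4 CC pools and at most 3 reads in 11 of 17, so STAG3 was not retained for testing in CC. The mean was 28.5 ± 12.6 CPM in oocytes (n = 16) and 1.05 ± 1.57 CPM in CC (n = 17; SD), and the pools overlapped through small oocyte replicate 2.

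SYCP3, a structural protein of the chromosome axis on which meiotic cohesin is laid, was higher in every oocyte pool than in every CC pool. It ranged from 66.8 to 124 CPM in small oocyte pools (median 101), from 104 to 130 CPM in large pools (median 115), and stood at 162, 79.0, 110 and 118 CPM in the spontaneous pools. In CC it ranged from 2.46 to 7.36 CPM over all pools (median 4.88). The CC values rested on 8 to 39 reads, for which counting alone gives a CV of 22.6% against the 30.5% observed.

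ESPL1, separase, ranged from 476 to 620 CPM in small oocyte pools (median 520), from 476 to 660 CPM in large pools (median 604), and stood at 489, 542, 575 and 474 CPM in the spontaneous pools. In CC it ranged from 1.91 to 23.0 CPM in small pools (median 8.67), from 1.14 to 15.8 CPM in large pools (median 6.74), and stood at 14.6, 15.2, 6.72, 16 and 4.85 CPM in the spontaneous pools. All oocyte pools thus lay far above all CC pools, and the 3 classifications overlapped within each cell type. The CV was 11.4% in oocytes and 61.3% in CC, where counting gives 16.9%.

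PTTG1, securin, which holds separase inactive until the anaphase-promoting complex marks it for destruction, ranged from 2157 to 3161 CPM in small oocyte pools (median 2718), from 2129 to 3234 CPM in large pools (median 2668), and stood at 2649, 2399, 2817 and 2233 CPM in the spontaneous pools. The CC pools ran from 5.16 to 29.8 CPM in small pools (median 12.7), from 2.94 to 13.2 CPM in large pools (median 10.8), and stood at 16.3, 29.6, 13.4, 20.5 and 8.16 CPM in the spontaneous pools. The classifications overlapped in each cell type, and no CC pool came near the lowest oocyte pool. An unnamed gene, ENSBTAG00000047322, kept nearly the same ratio of reads to PTTG1 in all oocyte pools (0.0701 to 0.0774, median 0.0744, n = 16, CV 2.75%), whereas in CC the ratio ranged from 0.0857 to 0.412. Whether both genes share reads was not tested, so the PTTG1 level is uncertain.

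**Figure D1:**
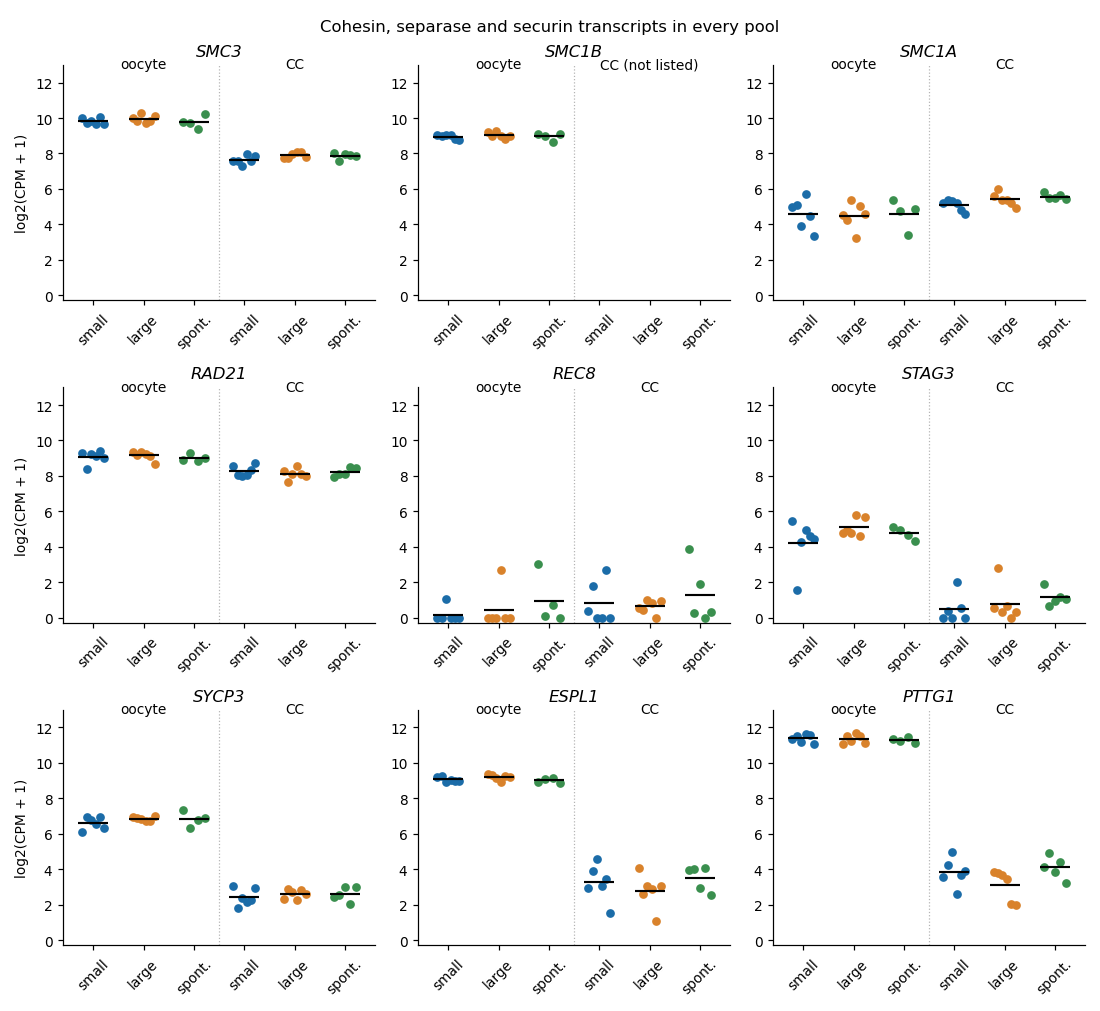
Level of each of the 9 genes as log2(CPM + 1), with each point a pool, black bars the mean of a classification, and oocyte and CC pools separated by a dotted line; panels are not to be compared in height, since transcript length is not corrected. SYCP3, ESPL1, PTTG1 and SMC3 separate the oocyte pools from the CC pools, and REC8 lies near 0 in both. Among the members with at least 5 CPM in enough pools to be tested, SMC1A alone has the higher mean in CC. Small, large and spontaneous pools largely overlap.

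Between the cell types, most of the genes were more abundant in oocytes. Of the 7 members listed in both tables and retained in at least 1 of them, 4 (SMC3, SYCP3, ESPL1 and PTTG1) had every oocyte pool above every CC pool, which held for 22.9% of all 11431 transcripts so compared, and none had every oocyte pool below, which held for 13.4%. On the log2(CPM + 1) scale the difference of oocyte minus CC was 7.69 (standard error 0.21) for PTTG1, 5.94 (0.227) for ESPL1, 4.22 (0.12) for SYCP3, 3.90 (0.305) for STAG3 and 2.07 (0.0763) for SMC3. As ratios of mean CPM these were 194 times for PTTG1, 57.6 times for ESPL1, 22 times for SYCP3, 27.0 times for STAG3 and 4.21 times for SMC3. The order of STAG3 and SYCP3 depended on the scale. RAD21 (0.88, standard error 0.0949) and SMC1A (-0.79, standard error 0.208) differed least. The standard errors treat oocyte and CC pools as separate samples, although they share cows, and STAG3 entered this comparison through the oocyte table alone, having failed the filter in CC.

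The other genes of sister chromatid cohesion were described with the same measure. STAG2, the main STAG subunit of many somatic cells, went the other way from STAG3. It had 7.64 ± 8.47 CPM in oocytes (SD, n = 16) and 147 ± 27.2 CPM in CC (SD, n = 17), with every oocyte pool (0.405 to 29.9 CPM) below every CC pool (74.3 to 187 CPM). STAG1 was closer between cell types, at 101 ± 20.2 CPM in oocytes and 63.6 ± 12.3 CPM in CC, and RAD21L1, a further meiotic kleisin, averaged 0.148 and 0.147 CPM. Of the 9 genes for cohesin loading, release and acetylation, 5 had every oocyte pool above every CC pool and none every pool below. Of all 11431 transcripts so compared, 22.9% and 13.4% did. ESCO2, an acetyltransferase that locks cohesin during DNA replication, had the widest gap among them, at 499 ± 68.7 CPM in oocytes and 5.62 ± 5.36 CPM in CC. SGO1, a shugoshin that shields centromeric cohesin, had 555 ± 55.4 and 5.42 ± 2.59 CPM, and SGO2 had 133 ± 25.0 and 31.8 ± 12.1 CPM. All oocyte pools were above all CC pools for 3 of 7 genes of centromeric protection and for 6 of 19 genes of the anaphase-promoting complex and its regulators. The same held for 5 of 13 genes of condensin and SMC5/6, for 7 of 9 proliferation markers and for 22.9% of all transcripts. CDCA5 of the loading genes, FBXO43 of the anaphase-promoting complex list and MCM5 of the proliferation markers failed the filter in CC. They entered these counts through the oocyte table alone. The synaptonemal complex genes SYCP1, SYCP2, SYCE2 and TEX12 passed the filter in oocytes only, with means of 26.5, 15.3, 72.7 and 27.6 CPM there and 0.137, 0.15, 1.82 and 0.583 CPM in CC, while the axis genes HORMAD1 and HORMAD2 failed it in both tables and overlapped. FBXO5 (EMI1), an inhibitor of the anaphase-promoting complex, had 1526 ± 118 CPM in oocytes and 4.63 ± 2.74 CPM in CC.

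**Figure D2:**
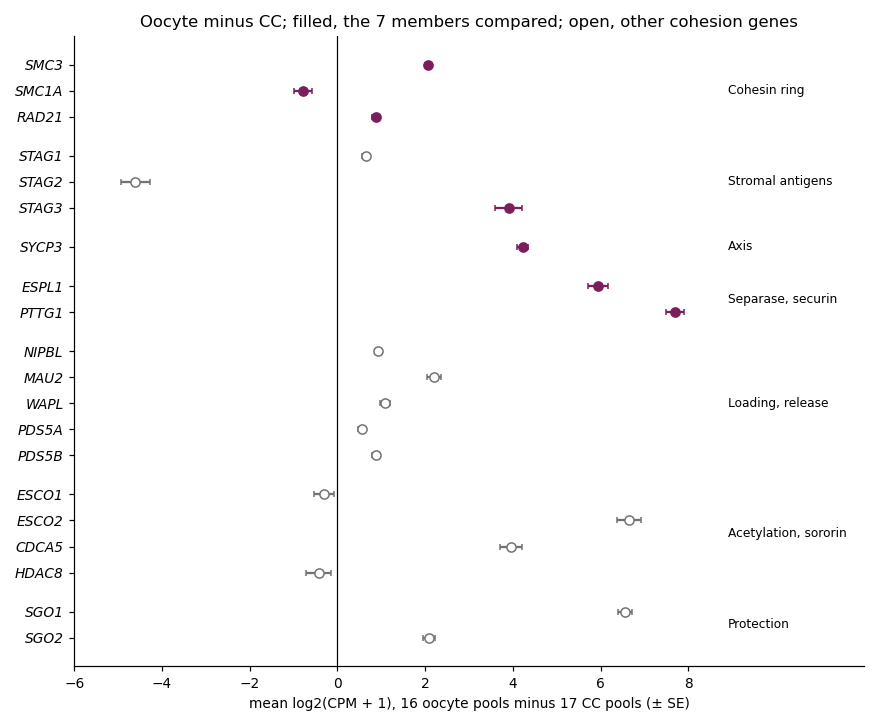
Difference in mean log2(CPM + 1), 16 oocyte pools minus 17 CC pools, with standard errors, for the 7 members compared (filled) and for other cohesion genes (open), grouped by role. PTTG1 (7.69), ESCO2 (6.64), SGO1 (6.55) and ESPL1 (5.94) lie farthest to the right, SMC1A (-0.79) lies left of 0 and STAG2 (-4.61) farthest to the left.

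Ratios of reads within a pool do not depend on how a pool was scaled. The unknown transcript lengths cancel between cell types only if they are the same in both, which was not tested. The ratio of SMC1A to SMC3 was 0.0271 ± 0.0144 in oocytes (SD, n = 16, range 0.00982 to 0.0652) and 0.185 ± 0.0499 in CC (SD, n = 17, range 0.0996 to 0.296), so that no oocyte pool reached a CC pool. In oocytes SMC1B took 0.549 ± 0.0647 reads for each read of SMC3 (range 0.428 to 0.669). The ratio of RAD21 to SMC3 was lower in all oocyte pools (0.596 ± 0.11, range 0.38 to 0.732) than in all CC pools (1.36 ± 0.304, range 0.939 to 1.93), although RAD21 itself had the higher mean CPM in oocytes.

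The ratios of the STAG subunits also differed between the cell types. The ratio of STAG2 to STAG1 was 0.0832 ± 0.104 in oocytes (range 0.00424 to 0.395) and 2.35 ± 0.491 in CC (range 1.73 to 3.50). The ratio of STAG3 to STAG1 was 0.296 ± 0.153 in oocytes and 0.0162 ± 0.0249 in CC, with overlap through small oocyte replicate 2 at 0.0196. STAG2 and SMC1A in oocyte pools were measured beside the cumulus marker reads given above, whose part in these levels was not tested.

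The ratio of separase to securin was 0.214 ± 0.0399 in oocytes (range 0.147 to 0.31) and 0.798 ± 0.524 in CC (range 0.139 to 2.46). The median was 0.214 against 0.63, and 1 CC pool lay below the oocyte range. In that pool, small replicate 6, the ratio rested on 11 reads of ESPL1. Reads were few in the other CC pools too, and over all of them ESPL1 had 4 to 88 and PTTG1 11 to 152.

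**Figure D3:**
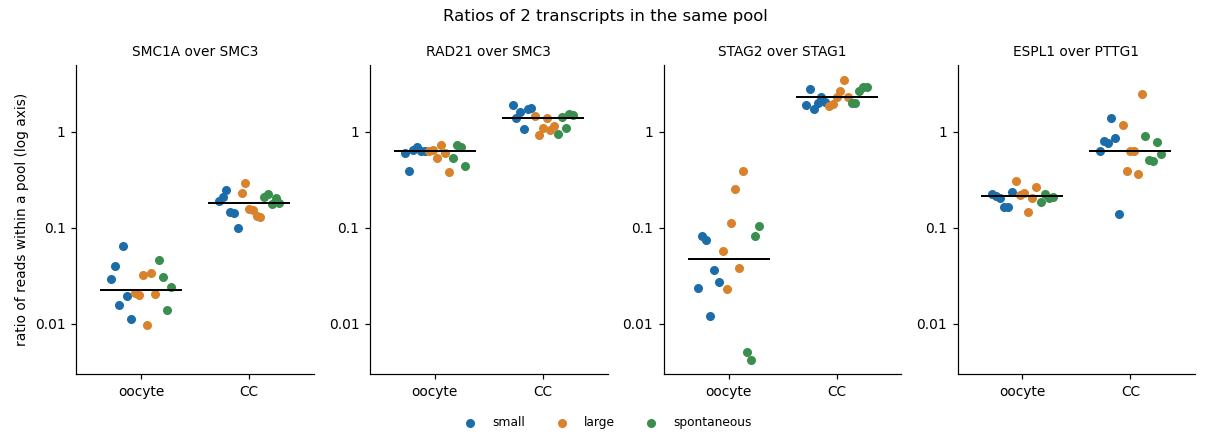
Ratio of the reads of 2 transcripts in the same pool on a log axis, oocyte pools at left and CC pools at right of each panel, coloured by classification, with black bars at the median. SMC1A over SMC3, RAD21 over SMC3 and STAG2 over STAG1 do not overlap between the cell types, whereas ESPL1 over PTTG1 (0.147 to 0.31 in oocytes, 0.139 to 2.46 in CC) does.

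The study asked whether transcripts differ with the maturity of the preovulatory follicle. Each pair of classifications was tested with limma on log2(CPM + 1), two-sided, and a transcript was called at a nominal p of 0.01 or less (in oocyte comparisons with small pools, with and without small replicate 3). The log2 fold change is the second classification minus the first. In oocytes none of the 8 members tested was called in any comparison. The shares called among all 10076 transcripts were 0.655% between small and large, 0.774% between small and spontaneous and 0.943% between large and spontaneous, so that at these rates no call among 8 genes is no departure from the background. Over the 24 tests of members in oocytes no unadjusted limma p was under 0.05 (4.11%, 4.51% and 4.87% of all transcripts). The smallest limma p of a member was 0.975 after Benjamini-Hochberg adjustment over all transcripts. No member was free of overlap between any pair of classifications (0.258%, 0.903% and 0.913% of all transcripts were). The median log2 fold change of the members was 0.11, -0.02 and -0.11 in the same order of comparisons, beside 0.05, 0.05 and 0.01 over all transcripts.

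How large a difference the oocyte data allow depends on the gene. For SMC1B, SMC3, RAD21, ESPL1 and PTTG1 the 15 log2 fold changes lay between -0.18 and 0.14, and their 95% intervals stayed within -0.46 and 0.40. ESPL1, separase, had 536 ± 54.1 CPM in small, 592 ± 67.2 CPM in large and 520.0 ± 47.0 CPM in spontaneous pools (SD, n = 6, 6 and 4). From large to spontaneous its log2 fold change was -0.18 (interval -0.46 to 0.09), with a two-sided exact permutation p of 0.1, which is unadjusted. Without large replicate 4 this exact permutation p was 0.0238, and that from small to large was 0.0281 in place of 0.136. With any other pool left out they were 0.0833 to 0.214 and 0.0671 to 0.247. PTTG1, its inhibitor, had 2691 ± 403, 2645 ± 453 and 2524 ± 260 CPM in the same order.

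SYCP3 could have differed by more, with intervals reaching from -0.47 to 0.77. The intervals of SMC1A and STAG3 ran from -1.12 to 1.87. The largest difference in oocytes was that of STAG3 from small to large, at 22.9 ± 13.6 and 35.0 ± 13.4 CPM (SD, n = 6 each). Its log2 fold change was 0.88 (standard error 0.487, interval -0.12 to 1.87, limma p = 0.0826, adjusted p = 0.997), and the two-sided exact permutation p of the means was 0.141. The log2 fold change was 0.35 without small replicate 2, the pool with 27 reads of STAG3.

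In CC none of the 6 members tested was called either. The shares called among all 9712 transcripts were 0.813% between small and large, 2.38% between small and spontaneous and 1.66% between large and spontaneous. The median log2 fold change of all transcripts was above 0, at 0.16 between small and spontaneous pools and 0.11 between large and spontaneous pools, and it was 0.01 in both after median-of-ratios scaling, so the CC values are read against that shift. The median of the members was 0.24 and 0.13 in these comparisons, and 0.00 from small to large beside 0.05 over all transcripts. Over the 18 tests of members 2 unadjusted limma p-values were under 0.05, a level reached by 4.0%, 8.55% and 7.07% of all transcripts in the same order.

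The first was that of SMC1A, with 33.6 ± 7.0 CPM in small pools (n = 6) and 46.4 ± 5.18 CPM in spontaneous pools (n = 5; SD). Every spontaneous pool lay above every small pool, which held in this direction for 1.1% of transcripts (1.16% in either direction). From small to large 0.247% of transcripts did not overlap, and no member was among them. The log2 fold change was 0.47 (standard error 0.20, interval 0.05 to 0.90, limma p = 0.0296, adjusted p = 0.542) and the two-sided exact permutation p was 0.00433, unadjusted and 1 of 42 exact tests on retained members. With median-of-ratios scaling the log2 fold change was 0.32, the pools overlapped and the exact permutation p was 0.232, and without mitochondrially encoded genes these were 0.30 and 0.26. Small CC replicate 3 had 44.0% mitochondrially encoded reads, and the log2 fold change was 0.52 without it.

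The second was that of PTTG1 from large to spontaneous, at 8.96 ± 4.73 CPM (n = 6) and 17.6 ± 8.09 CPM (n = 5; SD). The pools overlapped, and the log2 fold change was 0.98 (standard error 0.414, interval 0.11 to 1.85, limma p = 0.0302, adjusted p = 0.66, exact permutation p = 0.0541, two-sided). The exact permutation p was 0.0823 after median-of-ratios scaling and 0.0844 without mitochondrially encoded genes. With CPM it was 0.00476 without spontaneous replicate 5, and 0.0619 to 0.129 with any other pool left out. From small to spontaneous PTTG1 had a log2 fold change of 0.29 (interval -0.51 to 1.09), and the comparisons share the spontaneous pools. ESPL1 had 10.5 ± 7.33 CPM in small, 7.12 ± 4.81 CPM in large and 11.5 ± 5.26 CPM in spontaneous CC pools, with a log2 fold change from large to spontaneous of 0.73 (interval -0.24 to 1.70). Of the 8 proliferation markers tested in CC, 8 had a higher mean of log2(CPM + 1) in spontaneous than in large pools, as did 6368 of all 9712 transcripts, and none was called. Their summed level was 184 to 351 CPM in large and 235 to 591 CPM in spontaneous pools, and its part in the PTTG1 and ESPL1 values was not tested.

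SMC3 and RAD21 were the steadiest members in CC. SMC3 had 201 ± 32.7 CPM in small, 238 ± 27.0 CPM in large and 233 ± 25.4 CPM in spontaneous pools, and RAD21 had 316 ± 66.6, 282 ± 57.4 and 301 ± 49.9 CPM (SD, n = 6, 6 and 5). Their 6 intervals stayed within -0.55 and 0.59 on the log2 scale. From small to large the exact permutation p of SMC3 was 0.0693 with CPM, 0.0238 after median-of-ratios scaling and 0.0974 without mitochondrially encoded genes. With CPM it was 0.0303 without small replicate 4, 0.0498 without small replicate 6 and 0.0519 to 0.132 with any other pool left out. From small to spontaneous it was 0.102 with CPM, 0.444 after median-of-ratios scaling and 0.574 without mitochondrially encoded genes. With CPM it was 0.0397 without small replicate 4 or 0.0476 without spontaneous replicate 2. Leaving out any other pool gave 0.0794 to 0.224. The exact permutation p of RAD21 from small to large, with the lower mean in large pools, was 0.379 with CPM. It was 0.128 after median-of-ratios scaling and 0.0455 without mitochondrially encoded genes. SYCP3 in CC had 4.66 ± 1.96, 5.10 ± 1.10 and 5.22 ± 1.64 CPM, with log2 fold changes within 0.16 between any pair. Their intervals were wide, reaching from -0.69 to 0.93.

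**Figure D4:**
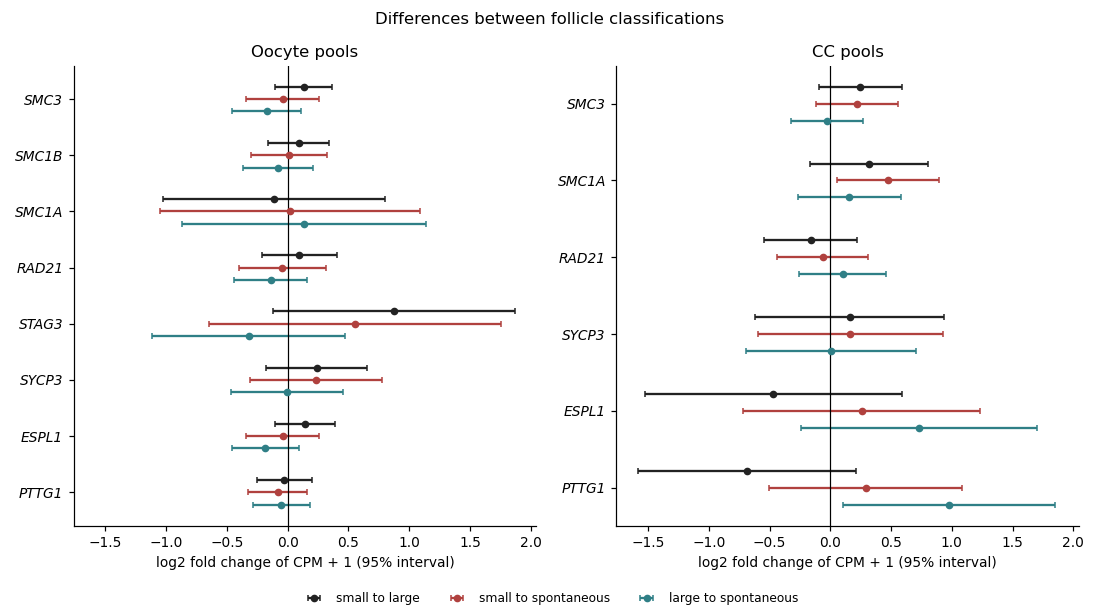
Log2 fold change of CPM + 1 between classifications with its 95% interval from limma, for the 8 members retained in oocytes and the 6 retained in CC. All oocyte intervals include 0; in CC those of SMC1A from small to spontaneous (0.05 to 0.90) and of PTTG1 from large to spontaneous (0.11 to 1.85) do not, and neither passed the nominal p of 0.01.

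Of the 6 other cohesion and chromosome lists, 55 genes were tested in oocytes and 48 in CC. None was called in oocytes, where 0.655 to 0.943% of all transcripts were. In CC the calls numbered 0 between small and large, 1 between small and spontaneous and 2 between large and spontaneous, beside 0.813%, 2.38% and 1.66% of all transcripts. Whether the cell types differ in these calls was not tested. In CC, ANAPC1, the largest subunit of the anaphase-promoting complex that targets securin, rose from 131 ± 24.2 CPM in small to 270 ± 59.5 CPM in spontaneous pools, without overlap (log2 fold change 1.03, limma adjusted p = 0.0569, exact permutation p = 0.00216, two-sided, the smallest these pools allow). It was the only 1 of 18 genes of that list called from small to spontaneous. From large to spontaneous UBE2C, the ubiquitin-conjugating enzyme of the same complex, rose from 39.3 ± 18.5 to 76.4 ± 31.5 CPM (log2 fold change 0.99) and was again the only 1 of 18. It was not called with median-of-ratios scaling (log2 fold change 0.89), without mitochondrially encoded genes (0.93), with edgeR (0.86) or DESeq2 (0.86), with the 3 classifications in a single fit (0.99), or without large replicate 3 (0.92), 5 (0.92) or 6 (0.80) or spontaneous replicate 2 (0.92) or 4 (0.78). NCAPH, the condensin kleisin, rose from 2.82 ± 1.21 to 8.95 ± 4.57 CPM without overlap, as did 0.762% of transcripts in this direction and 0.865% in either (log2 fold change 1.34), as 1 of 13 condensin and SMC5/6 genes, and was not called without spontaneous replicate 2 (1.19) or 4 (1.14), with the 3 classifications in a single fit (1.34) or with the replicate block (1.15). None of the 2 other STAG subunits, the 8 genes of loading, release and acetylation or the 7 of centromeric protection tested in CC was called.

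For each member retained, the transcript with the most similar pattern over pools was sought by Pearson's r of log2(CPM + 1) after subtracting the mean of each classification, as a description over 16 oocyte or 17 CC pools that share depth and composition. In oocytes the closest was ENSBTAG00000047322 to PTTG1 (r = 0.98), NEPRO to SYCP3 (0.88), NOLC1 to RAD21 (0.87), SMARCA5 to SMC3 (0.87), SLC26A2 to SMC1A (0.83), PPP2R2A to SMC1B (0.82), the unnamed ENSBTAG00000038088 to STAG3 (0.82) and ANKRD44 to ESPL1 (0.81). In CC it was DYNLT3 to RAD21 (0.92), EPN1 to SMC1A (0.90), ARHGAP5 to SMC3 (0.90), DIAPH3 to ESPL1 (0.87), SLC39A1 to SYCP3 (0.84) and KIF20A to PTTG1 (0.84). No member had the same closest transcript in both cell types. These are the highest of 10075 values in oocytes and 9711 in CC for each member.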

How the data were processed

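RNA of pools of 4 oocytes or of the CC of 4 complexes was amplified and sequenced by the authors, who trimmed the reads, aligned them with Hisat2 (bovine build UMD3.1) and used featureCounts to count them on Ensembl genes. Tool versions are not given in the sources used here, and the sources used here do not state whether counting used strand. The deposited unit is CPM, which the authors scaled to the reads on genes of each pool, in 1 table for 16 oocyte pools and 1 for 17 CC pools. Columns were matched to pools by name, and 0 were left unmatched. Multiples of the value of 1 read (tolerance 0.01) accounted for 100% of the values, so reads were recovered, at 7664375 to 17934916 per oocyte pool and 1911600 to 5772431 per CC pool.

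A transcript was tested if it reached 5 CPM in 4 or more of the oocyte pools (10076 transcripts) or in 5 or more of the CC pools (9712), with each pair of classifications fitted alone and without covariates. The test was limma's moderated test with a mean-variance trend on log2(CPM + 1), which understates changes of low transcripts. A transcript was called when its nominal p did not exceed 0.01, in oocyte comparisons with small pools both with and without small replicate 3, and adjusted p-values are Benjamini-Hochberg values over all transcripts tested. For members the difference in mean CPM was compared by an exact permutation test over all divisions of the pools. The tests were checked on simulated data whose planted changes were larger than any difference of a member between classifications. The check therefore does not cover differences of that size. Each cow gave the complex of its largest follicle, so pools of a classification were taken as replicates.

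The members and the lists of other genes were chosen with earlier results of these data known. The members are always named. Of the other lists, the genes called in any comparison are named, beside those singled out for their levels in both cell types, which were chosen after their values were seen. The lists cover other cohesin subunits, cohesin loading, centromeric protection, the anaphase-promoting complex, the synaptonemal complex, condensin, and markers of oocytes, cumulus cells, proliferation, white and red blood cells, theca and endothelium. MEIKIN and ANAPC2 were not found under these symbols.

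Alternatives were a pseudocount of 0.1, no filter, median-of-ratios scaling, CPM without the 13 mitochondrially encoded genes, edgeR's quasi-likelihood test and DESeq2 on the recovered reads, a single fit of the 3 classifications, a block for the replicate number, and leaving out each pool. The alternatives to the exact tests and to the ratios of reads were added after the data were seen. The gene names are those of the tables. The reference table used is of another assembly, so no coordinates are given, and no sequences were used here. The software was Python 3.11.15 with numpy 2.4.6, pandas 2.3.3 and matplotlib 3.10.9, and R 4.3.3 with DESeq2 1.42.0, edgeR 4.0.16 and limma 3.58.1.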

Additional observations from a re-analysis of the deposited data

Results flagged for a closer look

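In 51 groups of 4 to 6 pools, each 1 member in pools of the same cell type and classification, 6 pools stood apart from the rest of their group by Dixon's test. The test assumes normally distributed values, for which about 1 in 20 groups would show such a pool by chance. All 6 concerned the members that failed the filter in at least 1 table, where most of the group was at or near 0. That rate does not hold for such groups, and where the other 5 pools had no read, any read stands apart. For REC8 these were small oocyte replicate 3 at 1.04 CPM, where the other 5 pools had no read, large oocyte replicate 4 at 5.42 CPM, where the other 5 pools had no read, and spontaneous oocyte replicate 1 at 7.04 CPM, next to 0.607 CPM. In CC, spontaneous replicate 1 had 13.4 CPM of REC8, next to 2.72 CPM. For STAG3, small CC replicate 4 had 3.04 CPM, next to 0.428 CPM, and large CC replicate 2 had 6.05 CPM, next to 0.586 CPM.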

How the results depend on the processing

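No member was called between classifications under any alternative (796 fits of 42 results), and 66 of these fits, in 17 results, changed the sign of a log2 fold change whose size was at most 0.26. The counts of transcripts called moved by more than 1.5 times with DESeq2 in oocytes, from 66 to 113 between small and large, from 78 to 121 between small and spontaneous and from 95 to 181 between large and spontaneous. In CC the count between small and large rose from 79 to 137 with the 3 classifications in a single fit, and that between small and spontaneous fell from 231 to 126 with median-of-ratios scaling, to 127 without mitochondrially encoded genes and to 128 with edgeR. Leaving out 1 pool gave 47 to 93, 49 to 130 and 75 to 145 transcripts in oocytes and 52 to 113, 141 to 313 and 88 to 232 in CC, in the order small and large, small and spontaneous, large and spontaneous. The split of higher and lower calls in the second classification in CC, 67 and 12 between small and large, 221 and 10 between small and spontaneous and 141 and 20 between large and spontaneous, became 44 and 26, 78 and 48 and 62 and 54 with median-of-ratios scaling. Without mitochondrially encoded genes the split between small and large was 28 and 39, that between small and spontaneous 69 and 58 and that between large and spontaneous 85 and 39. The replicate numbers were not treated as pairs, since correlations of deviations between same-numbered pools ran from -0.19 to 0.22 and not every pool correlated best with its own number. With the replicate block, 43 transcripts in place of 78 were called between small and spontaneous oocytes. Sign changes in oocytes from small to spontaneous gave SMC1A -0.023 with median-of-ratios scaling, -0.063 with edgeR, -0.071 with DESeq2 and -0.33 with the replicate block, SMC1B -0.034, -0.022, -0.029 and -0.068 in the same order and -0.0070 without mitochondrially encoded genes, and RAD21 0.022 with the replicate block. From large to spontaneous SYCP3 in oocytes was 0.017 with edgeR, 0.025 with DESeq2 and 0.0040 with the replicate block. In CC from small to spontaneous ESPL1 was -0.095 with edgeR, -0.14 with DESeq2 and -0.083 with the replicate block, and RAD21 0.023 with the block. From large to spontaneous SYCP3 in CC was -0.079 with median-of-ratios scaling, -0.050 without mitochondrially encoded genes, -0.068 with edgeR and -0.064 with DESeq2, and RAD21 was -0.0012 with DESeq2. Leaving out 1 pool changed the sign in oocytes from small to large for RAD21 (-0.043 to 0.19), PTTG1 (-0.090 to 0.030) and SMC1A (-0.36 to 0.14), and from small to spontaneous for RAD21 (-0.18 to 0.019), ESPL1 (-0.091 to 0.0023), SMC3 (-0.18 to 0.087), SMC1A (-0.24 to 0.43) and SMC1B (-0.042 to 0.11). It did so from large to spontaneous for SYCP3 (-0.18 to 0.16), PTTG1 (-0.11 to 0.0063), SMC1A (-0.13 to 0.54) and SMC1B (-0.13 to 0.021) in oocytes and for SYCP3 (-0.092 to 0.15) and SMC3 (-0.064 to 0.041) in CC, and from small to spontaneous in CC for RAD21 (-0.13 to 0.023) and ESPL1 (-0.083 to 0.53). The causes were not tested.

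All 7 members compared between the cell types kept their direction. RAD21 went from 0.88 to 0.50 with median-of-ratios scaling over both tables and to 0.55 without mitochondrially encoded genes. In the same order SMC3 went from 2.07 to 1.68 and 1.74, SYCP3 from 4.22 to 3.86 and 3.95, and SMC1A from -0.79 to -1.15 and -1.11. With either scaling 4 members still had every oocyte pool above every CC pool. STAG3 went from 3.90 to 5.44 with a pseudocount of 0.1. Without small oocyte replicate 2, STAG3 also had no overlap, which made 5 members in place of 4. The number of exact permutation p-values under 0.05 was 1 as reported (SMC1A in CC from small to spontaneous, 0.00794 to 0.019 when a pool of either was left out) and 1 to 3 over all left-out pools, with ESPL1 in oocytes added without large replicate 4 and SMC3 or PTTG1 in CC added without small replicate 4 or 6 or spontaneous replicate 2 or 5.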

Other observations

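Of the marker lists, VCAN, a matrix proteoglycan of the expanding cumulus, rose in CC from 12999 ± 3582 CPM in small to 20998 ± 4630 CPM in large pools (SD, n = 6 each; log2 fold change 0.71), as 1 of 11 cumulus and granulosa markers. From large to spontaneous, INHA, the inhibin alpha subunit, rose from 1786 ± 886 to 3243 ± 1214 CPM (0.89) and CYP19A1, aromatase, from 3.52 ± 3.18 to 11.6 ± 7.10 CPM (1.74; SD, n = 6 and 5), as 2 of the same 11. Among all transcripts 0.813% were called from small to large and 1.66% from large to spontaneous. The limma adjusted p was 0.999 for VCAN and 0.567 for both INHA and CYP19A1. None of these 3 calls held without the filter, with median-of-ratios scaling or without mitochondrially encoded genes. Those of INHA and CYP19A1 were also lost with edgeR and with DESeq2. That of CYP19A1 was lost as well with a pseudocount of 0.1, a single fit of the 3 classifications and the replicate block. No marker was called in oocytes. INSL3, listed as a theca marker, averaged 410 ± 273 CPM in CC and 18.9 ± 29.1 CPM in oocytes (SD), while CYP17A1, the defining enzyme of theca cells, averaged 0.183 and 0.473 CPM. The summed white blood cell markers were 29.7 to 199 CPM in CC and 125 to 260 CPM in oocytes, where CSF1R alone averaged 176 CPM and PTPRC 0.0253 CPM. Summed endothelium markers were 1.42 to 30.7 CPM in CC and 69.1 to 123 CPM in oocytes, where TEK averaged 79.5 CPM. Red blood cell markers did not exceed 4.18 CPM in any pool.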
